A study of Mus musculus with 8 samples.

Results

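The 10 genes described here encode the enzymes that make serine from a glycolytic intermediate and that pass its carbon into the folate cycle, and they were followed over 8 Affymetrix arrays of cultured fibroblasts from mouse embryos. They were chosen as the genes whose platform annotation carries the symbol Phgdh, Psat1, Psph, Shmt1, Shmt2, Mthfd1, Mthfd2, Mthfd1l, Aldh1l1 or Aldh1l2, out of 19938 genes with a named probe set. Each of the 10 is measured by 1 probe set that is annotated to it alone. They fall into 3 enzymes of serine synthesis, 4 mitochondrial folate enzymes and 3 cytosolic ones.

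The groups were line A (MEF10) with tamoxifen, in which the cells expressed the PKM1 isoform of pyruvate kinase, line A without tamoxifen, in which they expressed PKM2, line B (MEF16) with tamoxifen (PKM1) and line B without tamoxifen (PKM2), with 2 samples each. The alleles, the dose and the time on tamoxifen are not given in the sources used here, and each line is a single line of fibroblasts. Since all PKM1 samples and no PKM2 samples had tamoxifen, the drug and the isoform cannot be told apart. Nothing in the labels shows that samples of 1 group grew as separate cultures. The p-values therefore rest on the spread among these arrays alone, and part of it may be technical.

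Values are log2 expression values, and changes are log2 differences, given as tamoxifen minus no tamoxifen where no other direction is named, each with its standard error (SE) from limma's fit. A gene passed when its p-value, adjusted by the Benjamini-Hochberg method over all 19938 genes, was under 0.05. The fit over both lines used all 8 samples with a term for the line. In it 263 genes passed, 1.32% of those tested: 161 higher and 102 lower, the lower ones being 0.512% of all genes. Array medians lay between 7.17 and 7.24. The 2 arrays of a group correlated over all genes at 0.9974 and 0.9956 in line A (with and without tamoxifen) and at 0.9894 and 0.9907 in line B (with and without), so replicates of line B lay further apart. Some label fields speak of mammary tumours. The 16 fibroblast markers included Fn1 at 13.19 and Vim at 13.04 on average, and 15 of the 16 lay above every array median on all 8 arrays. Of the 15 epithelial and milk markers, 10 lay below every array median on all arrays (Epcam averaged 6.00, Cdh1 6.64 and Csn2 5.70), 1 lay above (the keratin gene Krt8, 7.61) and 4 did neither, among them Krt19 at 7.11 to 7.86. With tamoxifen 2 of the 16 fibroblast markers rose, the matrix genes Lum (1.33, SE 0.17, limma adjusted p = 0.0047) and Dcn (0.88, SE 0.15, limma adjusted p = 0.021), though the call of Dcn was lost in 6 of 18 alternative settings and that of Lum in 1, and 0 of the 13 macrophage and blood markers and 0 of the 15 epithelial markers passed, with medians of -0.02, 0.02 and -0.05. Pkm, which encodes both isoforms, was at 10.74 to 11.41 with and 10.82 to 11.21 without tamoxifen. It has 2 named probe sets, and these values are of the one with the highest mean. That probe set was not resolved by exon, so it does not check the exchange of isoforms.

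Serine synthesis starts from 3-phosphoglycerate, an intermediate of glycolysis upstream of pyruvate kinase. Serine hydroxymethyltransferases then split serine into glycine and a carbon unit carried by folate, which cells use to make purines, thymidylate and methionine. The folate steps run in parallel in mitochondria and in the cytosol: in proliferating cells the mitochondrial enzymes oxidise the unit to formate, which leaves for the cytosol and is taken up there by the cytosolic enzymes. Phgdh, Psat1, Psph, Shmt2 and Mthfd2 are known targets of ATF4, a transcription factor that answers a shortage of amino acids.

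With tamoxifen, 2 of the 10 genes fell and 0 rose (0.808% of all genes did), both of them mitochondrial. Of the 4 mitochondrial genes 2 fell (Mthfd2 and Aldh1l2) and 2 did not pass, and their changes lay between -0.65 and -0.42 with a median of -0.50. Of the 3 cytosolic genes 0 passed, and their changes lay between -0.10 and 0.05 with a median of -0.06. Of the 3 serine synthesis genes 0 passed, with changes from -0.36 to -0.10 and a median of -0.31. The median over all genes was -0.01, and 9 of the 10 genes had a change below 0, as did 55.4% of all genes. In 4 of the 10 genes (Mthfd2, Mthfd1l, Aldh1l2 and Psat1) all 4 samples with tamoxifen lay below all 4 without, a pattern that 2.74% of all genes showed.

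The calls depended on the settings. Of 18 alternative settings, 7 lost the call of Mthfd2 and 7 that of Aldh1l2. With arrays weighted by their quality, 5 of the 10 passed in limma: Mthfd2, Aldh1l2, Psat1 (adjusted p = 0.0082), Mthfd1l (0.036) and Shmt2 (0.049). All 4 mitochondrial genes were among them, and 983 of the 19938 genes passed in all. Another variance model in limma (trend and robust) called 273 genes, and of the 10 again only Mthfd2 and Aldh1l2.

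**Figure D1:**
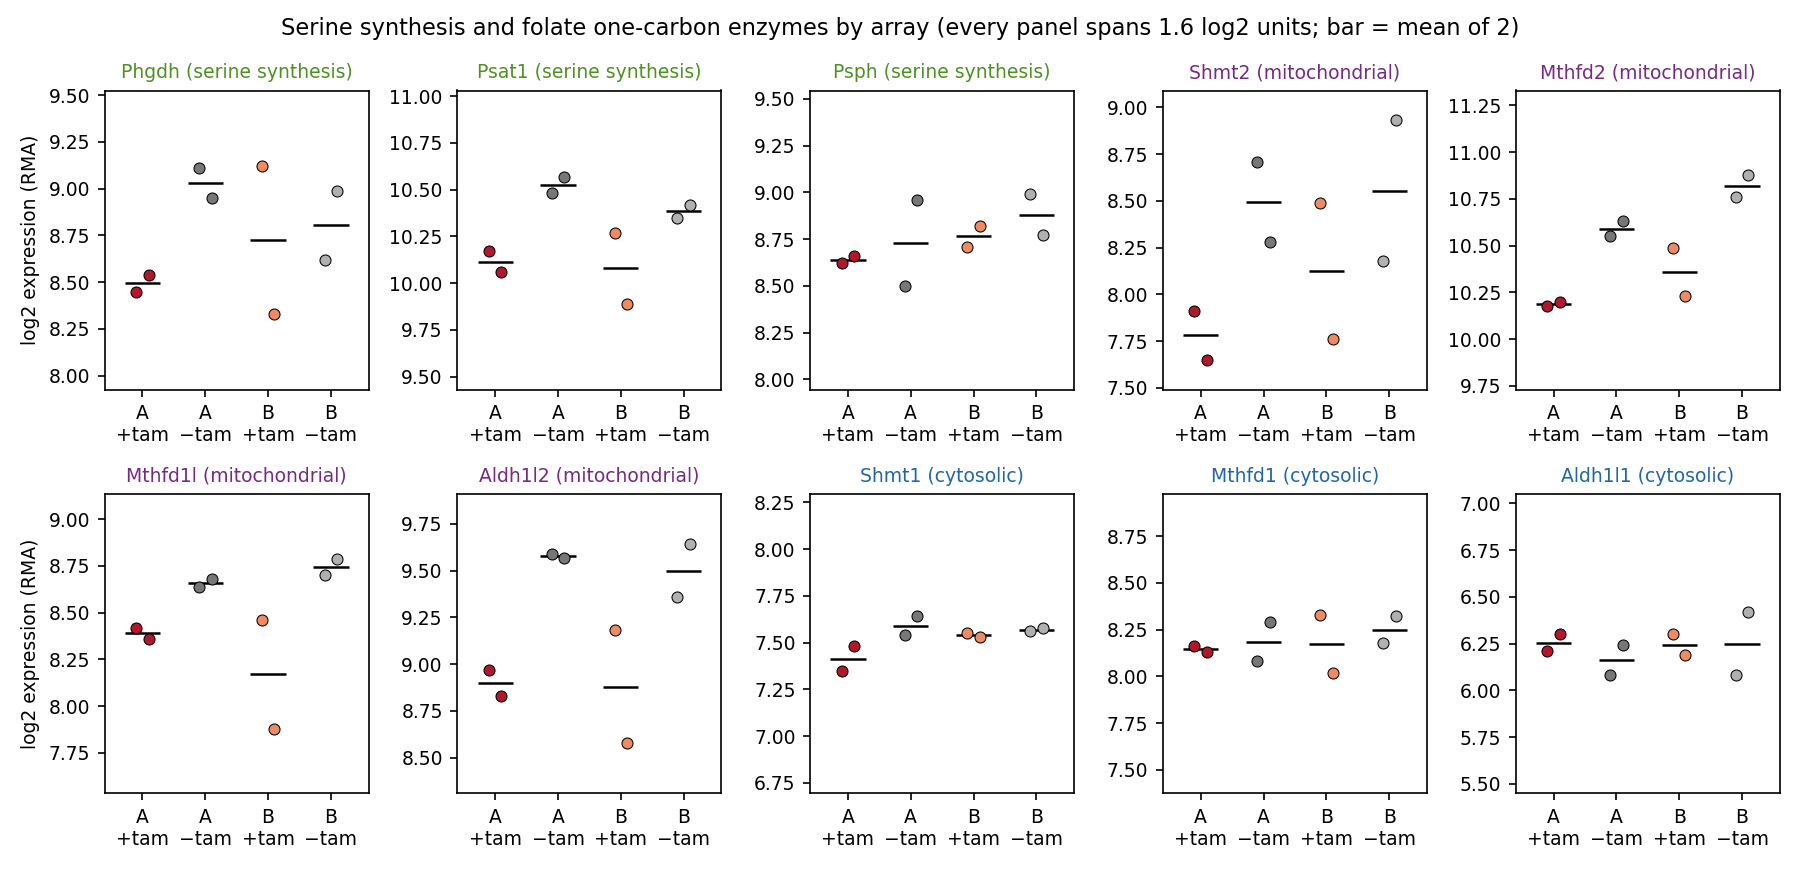
Log2 expression of the 10 genes on each of the 8 arrays, by line (A, B) and tamoxifen (+tam, −tam), with points for single arrays and bars for the mean of 2; every panel spans the same height. The samples with tamoxifen lie below those without for Mthfd2, Mthfd1l, Aldh1l2 and Psat1, and they overlap for the other genes.

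Promoter sequences are shown for the member that fell with the smallest p, for a member of serine synthesis, and for a gene of the ATF4 response that fell, so that the first 2 can be read against the last. They come from RefSeq (GRCm38.p6) and run from 250 bases before to 50 bases after an annotated transcript start. The windows are chr6:83317555-83317854 for Mthfd2, chr19:15925010-15925309 for Psat1 and chr3:50443564-50443863 for Slc7a11, all on the minus strand. Capitals mark matches to TGATGNAA, the core of the composite site that ATF4 binds with a C/EBP partner, on either strand.
Mthfd2: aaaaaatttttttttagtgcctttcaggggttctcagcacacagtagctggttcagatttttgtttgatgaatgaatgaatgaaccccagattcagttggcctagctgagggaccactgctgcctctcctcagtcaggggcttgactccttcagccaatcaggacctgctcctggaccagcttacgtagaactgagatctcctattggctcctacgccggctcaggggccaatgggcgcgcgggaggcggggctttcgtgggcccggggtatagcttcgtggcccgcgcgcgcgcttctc
Psat1: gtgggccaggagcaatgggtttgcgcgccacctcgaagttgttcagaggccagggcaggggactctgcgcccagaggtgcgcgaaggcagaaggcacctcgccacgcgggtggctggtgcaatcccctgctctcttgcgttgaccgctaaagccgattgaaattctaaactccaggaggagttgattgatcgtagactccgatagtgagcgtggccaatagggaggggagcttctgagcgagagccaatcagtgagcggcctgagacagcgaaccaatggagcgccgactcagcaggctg
Slc7a11: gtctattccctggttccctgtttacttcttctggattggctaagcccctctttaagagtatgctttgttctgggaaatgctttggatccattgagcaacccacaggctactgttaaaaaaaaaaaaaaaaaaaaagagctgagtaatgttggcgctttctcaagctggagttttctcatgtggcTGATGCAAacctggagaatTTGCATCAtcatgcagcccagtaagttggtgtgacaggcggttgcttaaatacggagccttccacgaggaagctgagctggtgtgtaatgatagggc
The Slc7a11 window holds 2 matches, 1 on each strand, the first beginning at position -66 from the start, and the Mthfd2 and Psat1 windows hold 0. The table held 9 of the 10 members (all but Aldh1l2), in 10 windows, and 0 of the 9 had a match. By comparison, 11 of 24 genes of the ATF4 list that the table holds had one, Asns, Chac1 and Trib3 among them, as did 3.97% of all 32851 windows. The E-box CACGTG, which MYC binds, was in 0 of the 9 members and in 7.15% of windows. It was in 3 of the 24 ATF4 genes and in 0 of the 21 proliferation markers that the table holds. TTTCGCGC, which E2F factors bind, was in 0 of the 9 and in 0.323% of windows, both strands searched. This motif was in 0 of the 24 ATF4 genes and in 4 of the 21 proliferation markers. At these shares of all windows, 0 of 9 members says little for any of the 3 motifs. Sites outside the windows were not searched, and binding of the factors was not tested. The motif CACGTG reads the same on both strands and none of the 3 motifs contains another. A transcript start other than the one used here would move the window: the annotated Mthfd2 gene (chromosome 6, 83305704 to 83326011) reaches 8407 bases further upstream, the annotated Slc7a11 gene reaches 55474 bases further upstream of the window with the matches, and the second Psat1 start lies 437 bases downstream of the one shown.

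Mthfd2, the mitochondrial dehydrogenase and cyclohydrolase that oxidises the folate-bound carbon unit, fell in the fit over both lines. It was at 10.18 and 10.20 in line A with tamoxifen, against 10.55 and 10.63 without. In line B it was at 10.49 and 10.23 with tamoxifen, against 10.76 and 10.88 without. The groups did not overlap within either line or over both, and the 2 line A samples with tamoxifen differed by 0.02. The change was -0.43 (SE 0.07, n = 8 samples, limma adjusted p = 0.021), 1.35-fold lower, with -0.40 (SE 0.11) in line A and -0.46 (SE 0.11) in line B, where leaving out 1 array gave -0.59 to -0.34.

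Aldh1l2, the mitochondrial formyltetrahydrofolate dehydrogenase, fell the most of the 10. It was at 8.97 and 8.83 in line A with tamoxifen, against 9.59 and 9.57 without, and at 9.18 and 8.58 in line B with tamoxifen, against 9.36 and 9.64 without. The groups did not overlap, and the lowest of the 8 values was line B with tamoxifen, replicate 2. The change was -0.65 (SE 0.12, n = 8 samples, limma adjusted p = 0.03), 1.57-fold lower, with -0.68 (SE 0.18) in line A and -0.62 (SE 0.18) in line B. The value in line B rested on single arrays: it was -0.32 without replicate 2 with tamoxifen and -0.92 without replicate 1 with tamoxifen. The gene lies on chromosome 10 (83487447 to 83534146, GRCm38.p6). The calls of Mthfd2 and Aldh1l2 did not hold in every fit that left out 1 array. Both were lost without any 1 of the 4 line A arrays or without line B without tamoxifen, replicate 2. Fewer genes passed in all in each of these fits than with all 8 samples. With 1 array left out, the change stayed between -0.48 and -0.38 for Mthfd2 and between -0.78 and -0.54 for Aldh1l2.

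Mthfd1l (chromosome 10, 3972892 to 4167081), the mitochondrial ligase that releases formate from the folate, did not pass, although its groups did not overlap. It was at 8.42 and 8.36 in line A with tamoxifen, against 8.64 and 8.68 without. In line B it was at 8.46 and 7.88 with tamoxifen, against 8.70 and 8.79 without. Replicate 2 of line B with tamoxifen was 0.58 below replicate 1, more than the change itself. The change was -0.42 (SE 0.12, 95% interval -0.68 to -0.16, adjusted p = 0.17 in limma).

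Shmt2 (chromosome 10, 127517123 to 127522444), the mitochondrial serine hydroxymethyltransferase, varied more between arrays than the other 9 genes, over a range of 1.28. It was at 7.91 and 7.65 in line A with tamoxifen, against 8.71 and 8.28 without, and the groups did not overlap there. In line B it was at 8.49 and 7.76 with tamoxifen, against 8.18 and 8.93 without, so the groups overlapped and the replicates differed by 0.73 with and by 0.75 without tamoxifen. The change over both lines was -0.57 (SE 0.20, 95% interval -1.01 to -0.14, adjusted p = 0.30 in limma), less than these differences between replicates of line B.

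The cytosolic enzymes moved within a narrow range. Shmt1 lay little above the array medians and Aldh1l1 below them, and RMA compresses differences between dim probe sets. Whether this narrowed their changes was not tested. Shmt1, the cytosolic serine hydroxymethyltransferase, was at 7.35 and 7.48 in line A with tamoxifen, against 7.54 and 7.64 without, and at 7.55 and 7.53 in line B with tamoxifen, against 7.56 and 7.58 without. Its change was -0.10 (SE 0.07, 95% interval -0.25 to 0.05, limma adjusted p = 0.72), and the treatments did not overlap within either line, although they did over both lines. Both samples with tamoxifen lay below both without in 26.2% of all genes in line A and in 12.9% in line B. Mthfd1, which carries the dehydrogenase, cyclohydrolase and synthetase activities of the cytosol in 1 protein, averaged 8.16 ± 0.13 with and 8.22 ± 0.11 without tamoxifen (SD, n = 4 each), a change of -0.06 (SE 0.09, 95% interval -0.25 to 0.13). Aldh1l1, the cytosolic formyltetrahydrofolate dehydrogenase, averaged 6.25 ± 0.06 with and 6.20 ± 0.16 without tamoxifen (SD, n = 4 each), a change of 0.05 (SE 0.09, 95% interval -0.15 to 0.24). Aldh1l1 lay below the array medians on every array, and no detection calls were used.

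The contrast of mitochondrial with cytosolic enzymes was made within each array, as the log2 difference between a mitochondrial gene and its cytosolic counterpart. This difference depends on the probes and is no ratio of transcript levels, but its change with tamoxifen shows unequal change of the 2 genes. Mthfd2 minus Mthfd1 was 2.02 and 2.07 in line A with tamoxifen, against 2.47 and 2.35 without, and 2.15 and 2.21 in line B with tamoxifen, against 2.58 and 2.56 without. In line B the replicates of this pair lay closer together than those of Mthfd2 alone. The difference averaged 2.11 ± 0.08 with and 2.49 ± 0.11 without tamoxifen (SD, n = 4 each), a change of -0.38.

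Aldh1l2 minus Aldh1l1 averaged 2.64 ± 0.22 with and 3.34 ± 0.13 without tamoxifen (SD, n = 4 each), a change of -0.70, with -0.78 in line A and -0.62 in line B. Since Aldh1l1 was not shown to be above background, this pair restates the change of Aldh1l2 and gives no contrast with a cytosolic gene. Mthfd1l minus Mthfd1 averaged 0.12 ± 0.18 with and 0.49 ± 0.07 without tamoxifen (SD, n = 4 each), a change of -0.36. In these 3 pairs, that with Aldh1l1 included, all 4 samples with tamoxifen lay below all 4 without. Among single genes 2.74% showed this pattern and 2.56% the reverse, and no such share was computed for pairs. An exact two-sided permutation test over the 8 samples gave p = 0.0286 for each pair, and 0.0381 adjusted over 4 pairs. The value of 0.0286 is the smallest that 70 rearrangements allow. The pairs with Mthfd2 and Mthfd1l use the same Mthfd1 values, so their results are not independent. Shmt2 minus Shmt1 averaged 0.48 ± 0.36 with and 0.95 ± 0.37 without tamoxifen (SD, n = 4 each), and the change of -0.47 did not pass (exact permutation p = 0.114, adjusted 0.114). When samples were exchanged only within their line, the smallest p that 36 rearrangements allow is 0.0556, so no pair could pass that test.

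**Figure D2:**
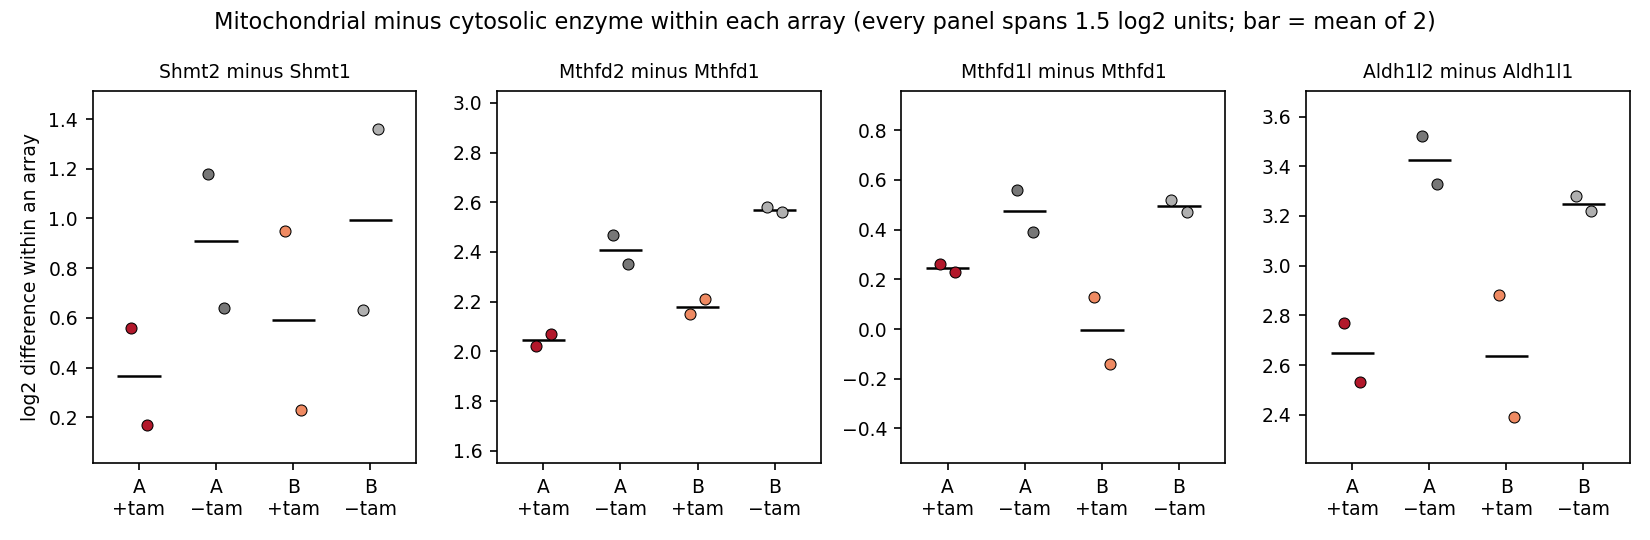
Log2 difference between a mitochondrial gene and its cytosolic counterpart on each of the 8 arrays, with points for arrays and bars for the mean of 2. The samples with tamoxifen lie below those without in the 3 pairs with Mthfd2, Mthfd1l and Aldh1l2, and they overlap for Shmt2 minus Shmt1.

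Of the serine synthesis genes, Psat1 (chromosome 19, 15905123 to 15925059), the phosphoserine aminotransferase, came closest to passing. It was at 10.17 and 10.06 in line A with tamoxifen, against 10.48 and 10.57 without. In line B it was at 10.27 and 9.89 with tamoxifen, against 10.35 and 10.42 without. The groups did not overlap, but in line B the nearest samples with and without tamoxifen were closer than the 0.38 between the replicates with tamoxifen. The change was -0.36 (SE 0.09, 95% interval -0.55 to -0.16, limma adjusted p = 0.10). Without line B with tamoxifen, replicate 1, Psat1 passed at -0.44 (limma adjusted p = 0.016).

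Phgdh (chromosome 3, 98313171 to 98339969), the dehydrogenase that commits 3-phosphoglycerate to serine, was at 8.45 and 8.54 in line A with tamoxifen, against 9.11 and 8.95 without. In line B it was at 9.12 and 8.33 with tamoxifen, against 8.62 and 8.99 without. In that line the replicates with tamoxifen were the highest and the lowest of all 8 values, 0.79 apart. The change was -0.53 (SE 0.23) in line A and -0.08 (SE 0.23) in line B, and over both lines -0.31 (SE 0.17, 95% interval -0.67 to 0.06, limma adjusted p = 0.62). Single arrays decided this value: without line B with tamoxifen, replicate 1, it was -0.51 and passed (limma adjusted p = 0.031), and without replicate 2 of that group it was -0.20 (0.75). Psph, the phosphatase of the last step, averaged 8.70 ± 0.09 with and 8.80 ± 0.22 without tamoxifen (SD, n = 4 each), a change of -0.10 (SE 0.10, 95% interval -0.32 to 0.12). Another probe set is annotated to Phgdh together with a second gene and was not used, and whether the Phgdh probe set also matches that transcript was not analysed.

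Each line was then tested in a fit of the 4 groups that shares 1 estimate of the spread. In it 100 genes passed in line A, 0.502% of those tested, and 4 in line B, 0.0201%. The 80 genes higher in line A were 0.401%. Of the 10 enzyme genes 0 passed in either line by limma. An unadjusted p under 0.05 was reached by 5 of them in line A, against 8.1% of all genes, and by 4 in line B, against 4.82%, all lower. When only the 4 arrays of line A were fitted, 5 of the 10 passed in limma: Aldh1l2 (adjusted p = 0.0044), Phgdh (0.015), Shmt2 (0.028), Mthfd2 (0.037) and Psat1 (0.042). That fit called 543 genes in all, and without the line B samples its SE for Shmt2 was 0.14, against 0.29 with them. When only the 4 arrays of line B were fitted, 0 of the 10 passed.

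The difference between the lines in their change was tested for each gene, and 0 of the 10 and 0.0% of all genes passed (0 of the 10 at an unadjusted p under 0.05, against 2.83% of all genes). The largest of the 10 belonged to Phgdh, whose change was 0.45 higher in line B (SE 0.32, 95% interval -0.28 to 1.19). For Mthfd2 and Aldh1l2 the change differed by -0.06 (SE 0.16, 95% interval -0.42 to 0.29) and 0.06 (SE 0.26, 95% interval -0.53 to 0.64). These intervals reach about the size of the changes themselves, so a moderate difference between the lines was not detectable with this number of arrays.

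**Figure D3:**
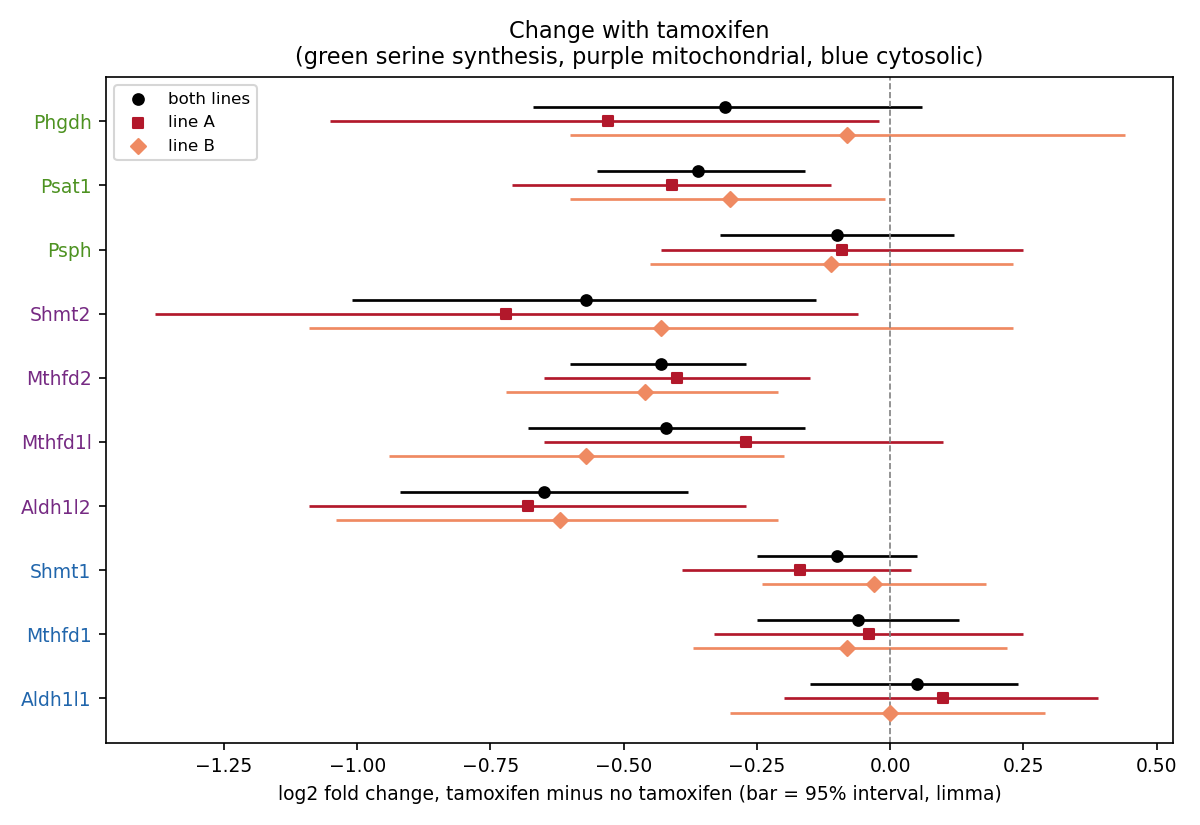
Log2 fold change with tamoxifen of the 10 genes over both lines, in line A and in line B, with bars for 95% intervals from limma. The intervals of Mthfd2, Aldh1l2 and the serine synthesis gene Psat1 lie below 0 in both lines. Of the other mitochondrial genes, Mthfd1l spans 0 in line A and Shmt2 in line B. Those of the 3 cytosolic genes span 0.

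The 10 genes were also compared between the lines. The difference of line B minus line A, over both treatments, lay between -0.09 (Psat1) and 0.20 (Shmt2 and Mthfd2), and 0 of the 10 passed, where 1.47% of all genes did. Mthfd2 was at 10.23 to 10.88 in line B and at 10.18 to 10.63 in line A, a difference of 0.20 (SE 0.07, 95% interval 0.03 to 0.36, limma adjusted p = 0.43), and it was the 1 gene of the 10 with an unadjusted p under 0.05, where 8.15% of all genes had one. In 0 of the 10 did all 4 samples of line B lie above all 4 of line A, as they did in 2.96% of all genes. The 13 macrophage and blood markers had a mean level of 6.90 to 7.01 in line B and 6.46 to 6.58 in line A. Of these markers 4 passed, all higher in line B (0.752% of all genes were), and 9 missed the threshold. The 4 were Lyz2 (1.83, SE 0.16, limma adjusted p = 0.00033), Tyrobp (0.73, SE 0.09), Adgre1 (0.59, SE 0.07) and Mrc1 (0.47, SE 0.08). The part of these markers in the values of the 10 genes was not tested.

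Single arrays of line B carried most of the extreme values. Replicate 2 of line B with tamoxifen was the lowest of the 8 arrays for 5 of the 10 genes, and replicate 2 of line B without tamoxifen was the highest for 5 of the 10. The median deviation of the 4 mitochondrial genes from their own means over the 8 arrays was -0.02 and -0.55 in line B with tamoxifen, against 0.18 and 0.41 without. In line A it was -0.28 and -0.34 with tamoxifen, against 0.26 and 0.17 without. The median deviation of the 24 measured proliferation markers was -0.09 and -0.11 in line B with tamoxifen, against 0.24 and 0.17 without. The replicates with tamoxifen that stood apart in the mitochondrial genes thus stood close together in this median. Single markers differed more between these replicates, in either direction: Bub1 was at 9.43 and 9.84, and Birc5 at 9.50 and 9.33. The deviation of 14 genes of serine use and transport was 0.15 and -0.25 in line B with tamoxifen, against -0.03 and 0.16 without, and there it differed between the replicates as well. With both line B arrays numbered 2 left out, a setting added after the values were seen, Mthfd2 was at -0.36 (adjusted p = 0.075) and Aldh1l2 at -0.51 (0.096), and 0 of the 10 passed, while 210 genes passed in all.

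**Figure D4:**
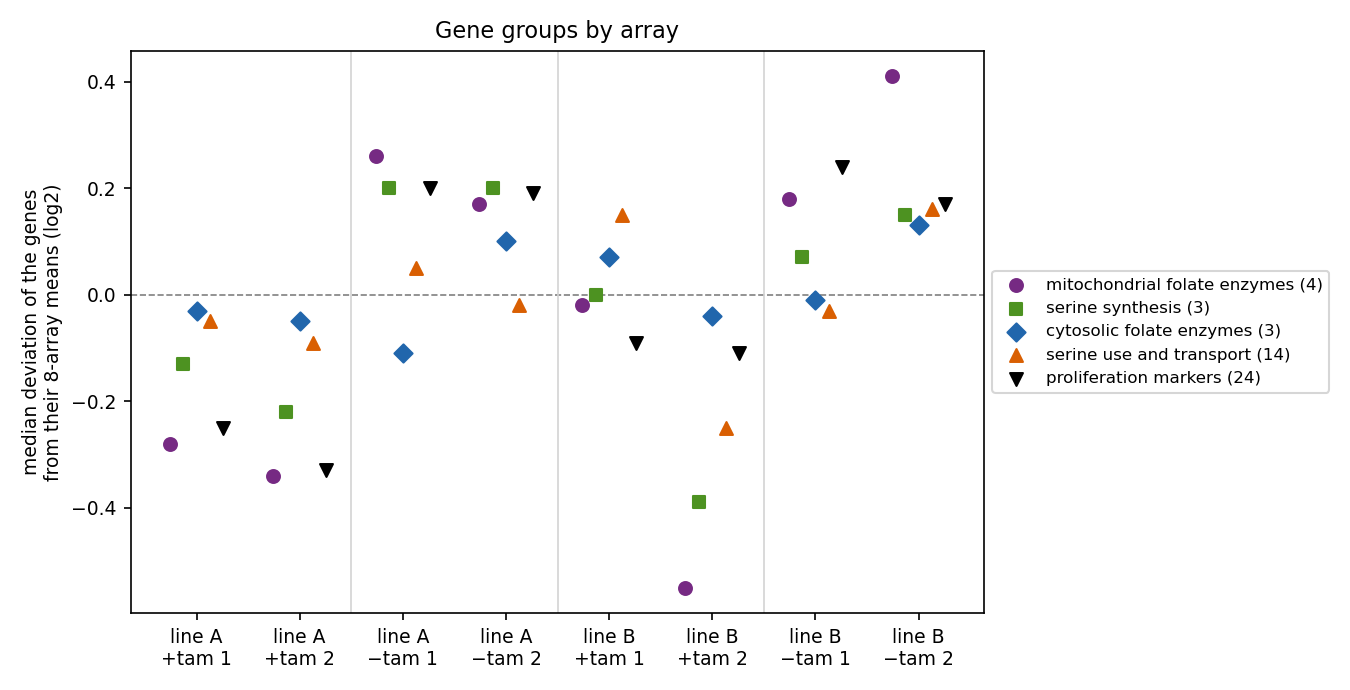
Median log2 deviation of gene groups from their own means over the 8 arrays, by array, with the number of genes in brackets. The mitochondrial folate enzymes are lowest on line B with tamoxifen, replicate 2, at -0.55 and highest on line B without tamoxifen, replicate 2, at 0.41. The median of the proliferation markers on each of these arrays lies close to that of its replicate.

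Proliferation markers moved with the mitochondrial genes between the treatments. Among the 24 with a named probe set, 10 fell and 0 rose, while 14 missed the threshold. Their median change was -0.38, and all 24 changes were below 0. Mki67, a marker of cycling cells, was at 9.30, 9.35, 9.53 and 9.70 with tamoxifen, against 10.24, 10.23, 10.10 and 10.12 without (change -0.70, SE 0.09, limma adjusted p = 0.0059). The cyclin gene Ccna2 changed by -0.67 (SE 0.09), the kinesin gene Kif23 by -0.57 (SE 0.08) and Mcm6, part of the replicative helicase, by -0.45 (SE 0.08), and these passed as well. Leaving out samples or changing the settings ended some of these calls: of 18 alternatives, Mki67 passed in all, while Kif23 lost its call in 1, Ccna2 in 2 and Mcm6 in 6. Over the 10 genes that fell, the number lost lay between 0 and 8, with adjusted p-values up to 0.20. Their part in the change of the folate enzymes was not tested. In bulk samples, fewer cells that express a gene and less RNA per cell cannot be told apart.

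In the rest of the pathway no gene passed, though more genes than the background had small p-values. Of 44 measured genes outside the 10, from 5 lists, 0 passed in either direction, their median change was -0.04, and 10 had an unadjusted p under 0.05, where 9.85% of all genes did. Their changes lay below the 5th percentile of all genes in 9 and above the 95th in 2. Among other folate enzymes, Tyms, which makes thymidylate, changed by -0.22 (SE 0.08), Mthfd2l, the mitochondrial relative of Mthfd2, by -0.17 (SE 0.08) and Gart, of purine synthesis, by -0.15 (SE 0.08), none of which passed. The median of these 6 genes was -0.16. For Mthfd2l the 95% interval was -0.35 to 0.00, and the samples with and without tamoxifen overlapped in line A.

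Folate carriers and the genes that hold folate in the cell had a median of -0.01 over 7 genes. Slc19a1, the reduced folate carrier, was at 7.98 ± 0.20 with and 8.24 ± 0.14 without tamoxifen (SD, n = 4 each; change -0.26, SE 0.09, limma adjusted p = 0.26). Ggh, which removes the glutamate tail of folates, was at 8.94 ± 0.24 with and 8.59 ± 0.32 without (SD, n = 4 each; change 0.35, SE 0.16, limma adjusted p = 0.52), and Slc46a1, the proton-coupled carrier, changed by 0.08 (SE 0.08). The glycine cleavage system and related mitochondrial genes, which offer another source of folate-bound carbon, had a median of 0.00 over 8 genes, with Gcsh at 0.12 (SE 0.11), Amt at -0.09 (SE 0.06) and Sardh at -0.09 (SE 0.09). The methionine cycle had a median of -0.03 over 9 genes, with Ahcyl2 at 0.18 (SE 0.08), Mat2b at 0.10 (SE 0.08) and Mat1a at -0.15 (SE 0.06). None of these passed.

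Among 14 genes of serine use and transport the median was -0.12 and 0 passed, with 8 changes below 0 and 6 above. The largest change, named after its value was seen, was that of Slc1a5, a carrier of glutamine and other neutral amino acids. It was at 8.18, 8.02, 8.65 and 8.10 with tamoxifen, against 8.93, 8.47, 8.41 and 8.85 without (change -0.43, SE 0.15, limma adjusted p = 0.33), and the groups overlapped in line B. The amino acid carriers Slc38a1 and Slc38a2 and the mitochondrial serine carrier Sfxn1 had changes of -0.30, -0.23 and -0.23, none of which passed. Slc1a4, a carrier of serine and other neutral amino acids, was at 8.14, 8.01, 8.03 and 7.60 with tamoxifen, against 8.36, 8.27, 8.26 and 8.24 without (change -0.34, SE 0.10, limma adjusted p = 0.18). Slc6a9, a glycine carrier, was at 7.62, 7.73, 7.77 and 7.40 with tamoxifen, against 8.05, 7.87, 7.78 and 8.14 without (change -0.33, SE 0.11, limma adjusted p = 0.25). The groups of both carriers did not overlap, and the lowest array was again line B with tamoxifen, replicate 2. Srr, which turns L-serine into D-serine, had a change of 0.28 (SE 0.08, limma adjusted p = 0.15).

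Among the 29 genes of the ATF4 response outside the 10 with a named probe set, 1 fell and 0 rose, while 28 missed the threshold, with a median of -0.13 and 26 changes below 0. Slc7a11, the cystine carrier whose promoter is printed above, was at 7.59, 7.48, 7.63 and 7.21 with tamoxifen, against 7.90, 8.00, 7.92 and 7.97 without, and fell (change -0.47, SE 0.09, limma adjusted p = 0.037). Asns, the asparagine synthetase, was at 11.53, 11.44, 11.72 and 11.59 with tamoxifen, against 11.74, 11.79, 11.90 and 11.93 without (change -0.27, SE 0.06, limma adjusted p = 0.088). The call of Slc7a11 was lost in 9 of 18 alternative settings, with an adjusted p of up to 0.17. Slc7a5, a carrier of large neutral amino acids, had a change of -0.65 (SE 0.14, limma adjusted p = 0.065) and no overlap between the groups. In all, 6 of the 29 had all samples with tamoxifen below all without, where 2.74% of all genes did.

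**Figure D5:**
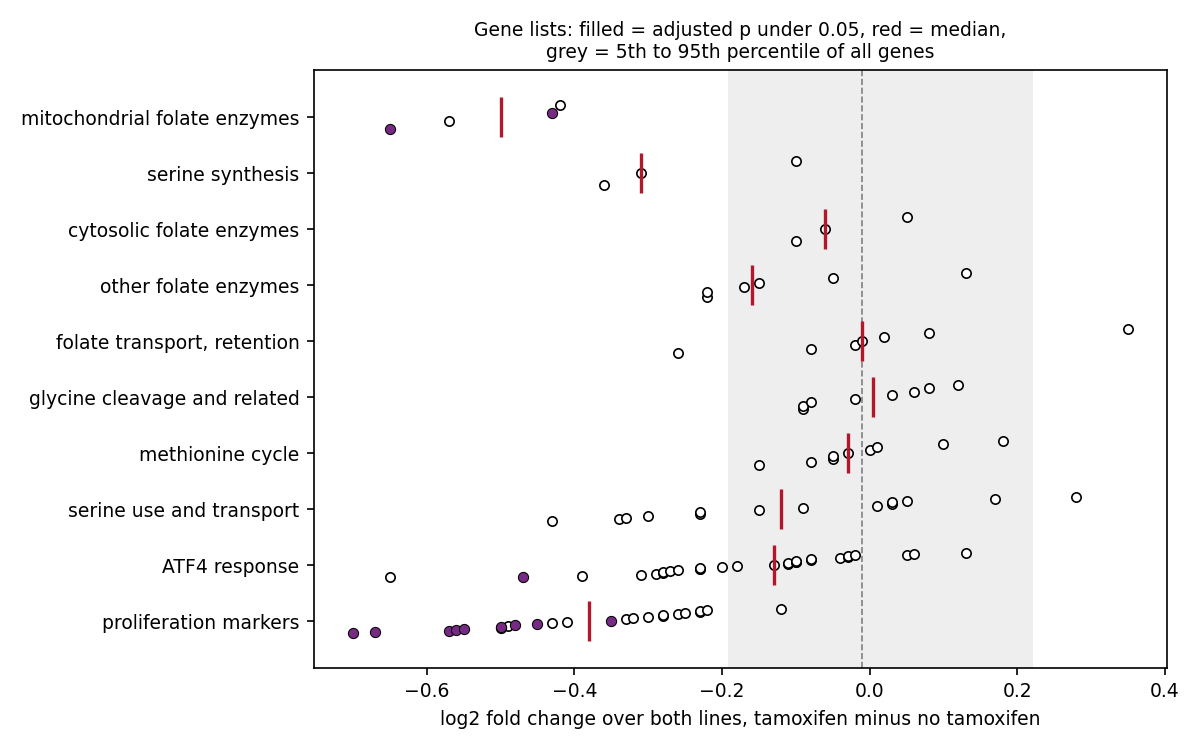
Log2 fold change with tamoxifen over both lines of each gene of the 10 and of the other lists, with filled points for genes that passed, red bars for list medians and a grey band from the 5th to the 95th percentile of all genes (-0.19 to 0.22). The 4 mitochondrial genes lie between -0.65 and -0.42, and the 3 cytosolic genes lie within the band.

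For 5 of the 10, the genes of most alike pattern were sought among 17150 named genes, by the root mean square difference of the log2 profiles over the 8 arrays, each centred on its own mean. Nearest to Mthfd2 were Hmgcs1 (0.0686) and Sqle (0.0906), enzymes of cholesterol synthesis, and Elovl6 (0.0862), a fatty acid elongase, where the profile of Mthfd2 itself has a root mean square of 0.25. Nearest to Aldh1l2 were Slc38a4 (0.0784), an amino acid carrier, and Ncapd2 (0.0955) and Cenpn (0.103), which act on mitotic chromosomes, and nearest to Psat1 were Lbr (0.0653), Kif20a (0.0677) and Gas2l3 (0.072). Nearest to Phgdh were Atp5g1 (0.0688), Plaur (0.0891) and Tmem63a (0.0898), and nearest to Shmt2 were Esyt1 (0.104), Tagln2 (0.115) and Srm (0.12). Of these 15 genes, Hmgcs1, Elovl6, Slc38a4, Ncapd2, Cenpn and Gas2l3 passed in the fit over both lines, each of them lower. All 15 were picked on these same arrays for profiles like those of the 5 members. Their direction with tamoxifen therefore follows from the choice and is no separate result. Within the 10, Mthfd1l was nearest to both Aldh1l2 (0.156) and Psat1 (0.119), and Psat1 was nearest to both Mthfd2 (0.16) and Phgdh (0.178).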

How the data were processed

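RNA of 8 samples was hybridised to Affymetrix arrays. The deposited table holds log2 values that the authors normalized by RMA in Affymetrix Expression Console, per the labels, which name no version. RMA compresses differences between dim probe sets. Of 35556 probe sets, 21789 have 1 gene symbol in GEO's platform annotation, 1621 several and 12146 none; only the first were named, and for genes with several probe sets the one with the highest mean was used. Gene IDs of 21698 matched RefSeq, which changed 0 symbols. Groups follow the sample titles, and replicate numbers follow sample order.

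Tests used limma 3.58.1 in R 4.3.3 (lmFit, eBayes; 5 residual degrees of freedom with line and tamoxifen, 4 with the group means) and were tested on simulated data. Pairs of genes were compared by exact permutation. The members and lists were chosen with earlier results of these data known. Genes named beside the 10 are those of each list that passed, the 3 of smallest p per list and the 3 nearest in pattern. Of these, some markers of cell types and some proliferation genes are given by count. Epcam, Cdh1, Csn2, Krt8, Krt19, Fn1 and Vim, 4 carriers of serine use and transport, and the genes with motifs, were named after their values were seen. Alternatives were other normalizations, filters, variance models, array weights, probe set rules, covariates, single-line fits and leaving out samples.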

Additional observations from a re-analysis of the deposited data

How the results depend on the processing

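No paired analysis was possible because the labels number no replicates. Over both lines 263 genes and 2 of the 10 passed: array weights gave 983 and 5, no term for the line 132 and 1, the mean of the line effects 1 of the 10, both line B arrays numbered 2 left out (chosen after seeing the data) 0 of the 10, and leaving out 1 sample 58 to 353 genes and 0 to 4 of the 10. In line A 100 genes and 0 of the 10 passed: array weights gave 525 and 2, every probe set on its own 183 genes, line A alone 543 and 5, and leaving out 1 sample 0 to 143 and 0 to 1. In line B 4 genes passed: quantile normalization gave 2, array weights 1, line B alone 2, and leaving out 1 sample 0 to 6. For line B minus line A 293 genes passed: array weights gave 441, samples with tamoxifen 106, samples without 65, and leaving out 1 sample 116 to 283. Permuted within lines, the pair changes of -0.38, -0.36 and -0.70 could not pass, since 36 rearrangements allow no p under 0.0556. The sign turned for tamoxifen over both lines with array weights (Slc46a1 0.00, Mrc1 -0.05) and with both line B arrays numbered 2 left out (Mthfd1 0.02, Mrc1 -0.07, Pkm 0.01). It turned for the change in line B minus that in line A after quantile normalization (Psph 0.04). For line B minus line A it turned after shifting medians (Phgdh -0.01), with array weights (Aldh1l2 0.02), with tamoxifen (Aldh1l1 -0.01) and without it (Phgdh -0.23, Mthfd1l 0.08, Shmt1 -0.02). The next ranges leave out 1 sample at a time. Signs also turned over both lines, with ranges of Pklr -0.07 to 0.00, Aldh1l1 -0.01 to 0.12, Mrc1 -0.04 to 0.09, Mthfd1 -0.12 to 0.01. Signs also turned in line A, with ranges of Psph -0.32 to 0.14, Mthfd1 -0.14 to 0.06. Signs also turned in line B, with ranges of Phgdh -0.47 to 0.31, Aldh1l1 -0.17 to 0.17, Mthfd1 -0.23 to 0.08. Signs also turned for the change in line B minus that in line A, with ranges of Psph -0.25 to 0.21, Mthfd1 -0.19 to 0.12, Aldh1l2 -0.24 to 0.36, Shmt2 -0.09 to 0.66, Mthfd2 -0.19 to 0.07, Aldh1l1 -0.27 to 0.07, Psat1 -0.08 to 0.30. Signs also turned for line B minus line A, with ranges of Aldh1l1 -0.04 to 0.10, Phgdh -0.20 to 0.12, Aldh1l2 -0.18 to 0.06, Mthfd1 -0.01 to 0.12, Mthfd1l -0.15 to 0.08. The causes were not tested. The number of arrays limits the precision.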

Other observations

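The probe set annotated to Phgdh together with Gm6756 entered no test. It was at 7.89 and 7.84 in line A with tamoxifen, against 8.34 and 8.14 without, and at 8.37 and 7.73 in line B with tamoxifen, against 7.68 and 8.45 without. As for the Phgdh probe set, the treatments did not overlap in line A, and in line B they did.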
